A study of Mus musculus with 6 samples.

Results

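The genes described here were 7 members of the costimulatory system that couples B cells to T cells. They were Cd28, which encodes a receptor best known from T cells, and 6 genes for molecules that antigen-presenting cells such as B cells carry: Cd80, Cd86, Icosl, Cd274, Pdcd1lg2 and Cd40. They were found by symbol among the 39017 genes of the count table, and all 7 were among the 18268 genes with enough counts to be tested. The group was chosen by the normalized counts of Cd28 and Cd80, whose difference between Control and Prmt1-null iGBs was already known, so the values of the members between genotypes are given as a description and no test is claimed for them.

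RNA-seq was performed on induced germinal centre B cells (iGBs), splenic B cells of C57BL6/J mice grown on 40LB cells. 40LB cells are fibroblasts that supply CD40 ligand and BAFF, and IL-4 was added, at 5 ng/ml according to the labels, while the study's methods give a lower concentration. The 3 Control cultures came from Cγ1-cre mice and the 3 Prmt1-null cultures from Prmt1 F/F Cγ1-cre mice, with 1 library per mouse, and cells were collected on day 3.5. In both groups the feeders were removed by magnetic depletion before RNA extraction. Both groups carried the Cγ1-cre allele, which is active in B cells that have begun to transcribe the IgG1 constant region, so that deletion of the floxed Prmt1 alleles takes place during the culture and need not be complete. Prmt1 encodes the main enzyme that places asymmetric dimethyl groups on arginines. Control replicate 1 and Prmt1-null replicate 3 came from male mice and the other 4 libraries from female mice. The age of the mice was not given in the sources used here.

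A T cell that recognizes antigen needs a further signal from the antigen-presenting cell, which CD28 provides when it binds CD80 or CD86. CTLA-4 binds the same ligands and inhibits, ICOS ligand is bound by ICOS on follicular helper T cells, and PD-L1 (encoded by Cd274) and PD-L2 (encoded by Pdcd1lg2) bind the inhibitory receptor PD-1. CD40 works in the other direction, since the T cell carries its ligand and the B cell answers through NF-kB with, among others, CD80 and CD86. CD28 is also known from plasma cells, where it can carry a survival signal.

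Total counts per library ran from 45343250 to 62774232, and scaling factors for composition ran from 0.9855 to 1.013. A gene with 3 counts in a library gave between 0.0478 and 0.0662 CPM, that is, counts after scaling by the library total, a floor that covers counting error only, and the biological coefficient of variation was 0.154. Prmt1 (ENSMUSG00000052429) fell from 4242 ± 516 normalized counts (counts scaled to a common library size, SD, n = 3) in Control to 1567 ± 154 in Prmt1-null iGBs, which was 36.9% of Control (log2 fold change −1.44, SE 0.095, adjusted p = 1.11e-05 in edgeR's quasi-likelihood test, adjusted by Benjamini-Hochberg over all genes tested). Levels of Xist and Ddx3y matched the labelled sex in all 6 libraries. The 10 B cell markers summed to 8790 to 9270 CPM in Control and 9460 to 9630 CPM in Prmt1-null libraries, ranges that did not overlap, and the 8 germinal centre B cell markers to 1330 to 1590 and 1360 to 1470 CPM, with Fcer2a (CD23) and Cd79a (a chain of the B cell receptor) as the B cell genes with the highest level per length. Whether the 6 cultures were handled on separate days was not given in the sources used here, so p-values measure the spread between these libraries.

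Cd28 (ENSMUSG00000026012) lies on the forward strand of chromosome 1 at chr1:60716800-60773359 (mm10), next to Ctla4 and Icos. Control libraries held 151.9, 138.7 and 198.3 normalized counts of it, and Prmt1-null libraries 483, 519.9 and 367.7. Each Prmt1-null library was above each Control library, with a wide gap between 198.3 and 367.7. The means were 163 ± 31.3 and 456.9 ± 79.4 normalized counts (SD, n = 3), a ratio of 2.80 and a log2 fold change of 1.49 (SE 0.187). Among the 18268 genes Cd28 held rank 128 by log2 fold change, counted from the largest increase. The level stayed low in absolute terms. The raw counts behind these values were 125 to 180 per Control library and 389 to 564 per Prmt1-null library. The level per length was 0.48 RPKM in Control (counts per kilobase of exon, scaled to library size) and 1.35 RPKM in Prmt1-null iGBs.

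**Figure D1:**
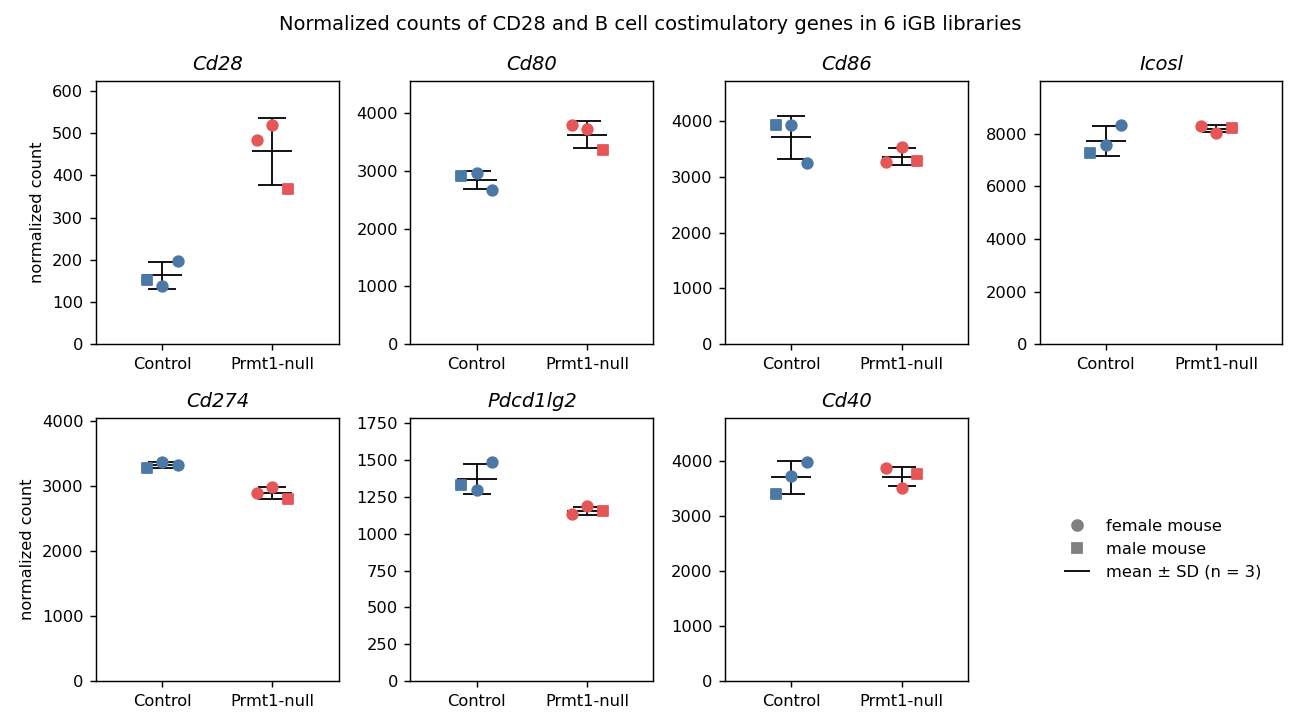
Normalized counts of the 7 genes in each library, with 1 panel per gene, a y axis of its own that starts at 0, points for libraries (circles female, squares male) and bars for the mean ± SD of 3 libraries per group. The groups separate upward for Cd28 and Cd80 and downward for Cd274 and Pdcd1lg2, and overlap for Cd86, Icosl and Cd40.

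Other genes that T cells use were read beside Cd28, because splenic B cells purified by depletion can hold some T cells. The 18 T cell markers summed to between 123 and 142 CPM in Control and between 122 and 145 CPM in Prmt1-null libraries, of which Cd2, Tcf7 and Cd247 had the highest levels per length, and 0 of the 14 tested markers passed an adjusted p of 0.05 with a mean normalized count over 100 (2 had an unadjusted p under 0.05, and 0 passed in DESeq2 or limma-voom). Their median log2 fold change was 0.32, against −0.001 for all genes tested, and only 5 of them had a mean normalized count over 100. Over all genes tested, 1.18% passed this threshold, 13.5% had an unadjusted p under 0.05, and DESeq2 and limma-voom called 4.08% and 1.36%. The 2 markers with an unadjusted p under 0.05 were Cd5 and Tcf7, at 0.42 and 0.26 (adjusted p = 0.212 and 0.201 in edgeR's test). Both were higher in each Prmt1-null library than in each Control library. For 8 genes of the T cell receptor complex and its coreceptors (Cd3d, Cd3e, Cd3g, Cd4, Cd8a, Trac, Trbc1 and Trbc2, chosen after their values were seen), the summed counts were 74, 202 and 82 in Control and 203, 186 and 99 in Prmt1-null libraries. The sums overlapped between the groups, at 1.62 to 3.22 CPM in Control and 1.71 to 3.65 CPM in Prmt1-null libraries, while Cd28 was at 2.52 to 3.57 and 6.72 to 9.28 CPM. They leave out Cd247, the zeta chain of the complex, which had 1334 to 1572 counts in Control and 1271 to 1589 in Prmt1-null libraries, and Cd8b1, which had 2 to 18 and 6 to 18. The part of T cells in the level of Cd28 was not tested, and in bulk RNA more cells that express a gene and more RNA per cell cannot be told apart.

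Of 11 tested plasma cell markers, 2 rose and 0 fell, against 1.18% of all genes past the threshold. Derl3, which helps to clear misfolded proteins from the endoplasmic reticulum, rose from 1059.7 to 1596.2 normalized counts (log2 fold change 0.59, SE 0.105, adjusted p = 0.0166), and Txndc5, a protein disulfide isomerase, rose from 6045 to 8258 (0.45, SE 0.062, adjusted p = 0.00486). Derl3 no longer passed without Control replicate 2, Prmt1-null replicate 2 or Prmt1-null replicate 3 (adjusted p up to 0.0941), whereas Txndc5 passed in each such fit. Jchain (the joining chain of secreted antibodies), Ell2 and Fkbp11 had log2 fold changes of −0.09, −0.12 and −0.03 and Mzb1 one of 0.08. Sdc1 (CD138), Prdm1 and Irf4 were at 0.52, 0.285 and 0.16 with overlapping libraries (adjusted p = 0.489, 0.384 and 0.337 in edgeR's test). Of the 11 markers, 5 had an unadjusted p under 0.05, against 13.5% of all genes tested. The 9 markers other than Derl3 and Txndc5 did not pass, although DESeq2 and limma-voom, which called 4.08% and 1.36% of all genes tested, each added Xbp1, the transcription factor of the secretory programme, and Slamf7 to make 4. The summed level of all 12 markers was 1620 to 1740 CPM in Control and 1800 to 1960 CPM in Prmt1-null libraries, with Mzb1, Xbp1 and Irf4 at the highest levels per length and a median log2 fold change of 0.245 among those tested. The part of this difference in the level of Cd28 was not tested.

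Ctla4, Icos and Pdcd1, receptors of the CD28 family, had fewer counts than Cd28. Ctla4 had 20, 27 and 20 counts in Control and 6, 10 and 19 in Prmt1-null libraries, with a log2 fold change of −1.06 (SE 0.647, adjusted p = 0.514). Each Control library was above each Prmt1-null library once scaled for size, but the counts are few, and the gene overlaps the pseudogene Rpl18-ps1 on the same strand, which makes its reads uncertain. Icos had 0 counts in each Control library and 6, 10 and 4 in the Prmt1-null libraries. Pdcd1, which encodes PD-1, had 4, 0 and 8 counts in Control and 8, 0 and 15 in Prmt1-null libraries. Icos and Pdcd1 were too low to be tested.

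Cd80 (ENSMUSG00000075122), a ligand of CD28 and CTLA-4, lies at chr16:38455561-38496335 on the forward strand. It had 2901, 2951 and 2662 normalized counts in Control and 3791, 3725 and 3356 in Prmt1-null libraries. The groups did not overlap, and Prmt1-null replicate 3, from a male mouse, was the lowest of its group, as it was for Cd28. The means were 2838 ± 154.5 and 3624 ± 234.6 (SD, n = 3), a ratio of 1.28 and a log2 fold change of 0.35 (SE 0.072).

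Cd86 (ENSMUSG00000022901), the other ligand of both receptors, lies on the reverse strand of the same chromosome at chr16:36603869-36666081, 1.79 Mb from Cd80. Its normalized counts were 3935, 3936 and 3259 in Control and 3271, 3536 and 3283 in Prmt1-null libraries. Control replicate 3 was below the whole of the Prmt1-null group, so that the groups overlapped. The means were 3710 ± 390.6 and 3364 ± 149.6, a log2 fold change of −0.14 (SE 0.079).

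The ratio of Cd80 to Cd86 per length was 0.729, 0.741 and 0.808 in Control and 1.15, 1.04 and 1.01 in Prmt1-null libraries, with means of 0.759 ± 0.0423 and 1.07 ± 0.0708 (SD, n = 3). Cd86 was thus the more abundant transcript in each Control library and Cd80 in each Prmt1-null library. Their sum was at 32.1 ± 2.67 RPKM in Control and 34.2 ± 1.55 RPKM in Prmt1-null iGBs with overlapping libraries. Set against the receptor, Cd86 was 39.4 ± 10.5 times as abundant per length as Cd28 in Control and 12.5 ± 2.07 times in Prmt1-null iGBs, and Cd80 was 29.6 ± 6.7 and 13.3 ± 1.65 times as abundant.

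Icosl (ENSMUSG00000000732), the ligand of ICOS, lies at chr10:78069302-78083913 on the forward strand. Normalized counts were 7246, 7566 and 8327 in Control and 8281, 8037 and 8225 in Prmt1-null libraries. Control replicate 3 was the highest of all 6, and the groups overlapped. The means were 7713 ± 555.5 and 8181 ± 128.1 (log2 fold change 0.09, SE 0.063). Cd40 (ENSMUSG00000017652, chr2:165055627-165072948, forward strand), the receptor through which the feeders stimulate the cells, had 3395, 3726 and 3993 normalized counts in Control and 3870, 3519 and 3774 in Prmt1-null libraries. All 3 Prmt1-null values fell inside the Control range. The means were 3705 ± 299.7 and 3721 ± 181.4 (log2 fold change 0.01, SE 0.072), the smallest difference among the 7 genes.

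Both ligands of PD-1 had lower means in Prmt1-null iGBs, and neither was past the threshold of an adjusted p of 0.05. Cd274 (ENSMUSG00000016496, chr19:29367455-29388095, forward strand) had 3279, 3371 and 3325 normalized counts in Control and 2887, 2978 and 2800 in Prmt1-null libraries. The libraries lay close together within each group and the groups did not overlap. Means were 3325 ± 46.1 and 2888 ± 89.3, so that the Prmt1-null level was 86.9% of Control (log2 fold change −0.20, SE 0.063). Pdcd1lg2 (ENSMUSG00000016498, chr19:29410919-29471161, forward strand) starts 22.8 kb beyond the end of Cd274. It had 1329, 1299 and 1491 normalized counts in Control and 1133, 1187 and 1155 in Prmt1-null libraries. Again the groups did not overlap, with Control replicate 3 the highest. The means were 1373 ± 103.3 and 1158 ± 27.3, or 84.4% of Control (log2 fold change −0.245, SE 0.096). The ratio of Cd274 to Pdcd1lg2 per length overlapped between the groups, at 1.32 ± 0.1 in Control and 1.35 ± 0.0343 in Prmt1-null iGBs. Each of these genes overlaps an antisense gene, AC119228.1 for Cd274, which is not a row of the table, and A930007I19Rik for Pdcd1lg2, with 2112 counts over the 6 libraries. The library kit keeps the strand, but the strand setting of the counting was not given in the sources used here, so that reads of these antisense genes may be part of the values.

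Of the 7 genes, 2 (Cd28 and Cd80) were past an adjusted p of 0.05 by edgeR's quasi-likelihood test with a mean normalized count over 100, a threshold that 216 of the 18268 genes passed (1.18%), with 106 of the calls upward (0.58%) and 110 downward (0.602%). The 3 libraries of each group did not overlap for 4 of the 7 genes, 2 higher and 2 lower, as they did not for 3630 of all genes tested (19.9%). Cd80 was past the threshold in 1 of the 6 fits that each left out a library, the one without Control replicate 3, and Cd28 in 6. Nothing is read from these counts, since the genes were chosen with this contrast known. The median log2 fold change of the 7 genes was 0.01, and 4 were above 0.

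**Figure D2:**
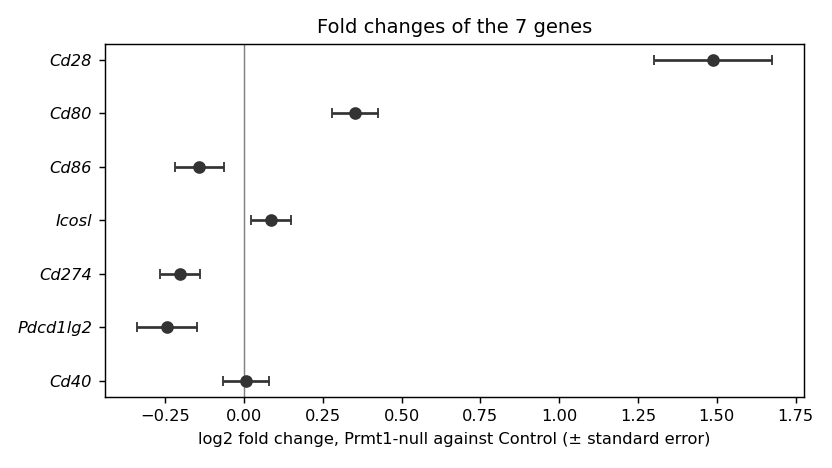
Log2 fold change of Prmt1-null against Control iGBs for the 7 genes, with bars for ± 1 standard error from the edgeR fit of 3 against 3 libraries. Cd28 is at 1.49 and Cd80 at 0.35, the other 5 genes lie between −0.245 and 0.09, and a line marks no change.

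Compared per length, the 6 genes for molecules of antigen-presenting cells were expressed at more than 10 RPKM in both groups and Cd28 far below. In Control iGBs the order was Icosl at 30.1 ± 2.17 RPKM, Cd40 at 19.6 ± 1.59, Cd86 at 18.3 ± 1.92, Cd274 at 16.6 ± 0.229, Cd80 at 13.8 ± 0.752, Pdcd1lg2 at 12.6 ± 0.95 and Cd28 at 0.48 ± 0.0922 (SD, n = 3). Cd40 overlapped with Cd86, Cd86 with Cd274, and Cd80 with Pdcd1lg2, so the order within these pairs was not larger than the spread of the libraries. In Prmt1-null iGBs Icosl led at 31.9 ± 0.5 RPKM, and Cd80 moved from the fifth to the third place at 17.6 ± 1.14, above Cd86 at 16.6 ± 0.737 in mean but overlapping with it. The others were Cd40 at 19.7 ± 0.961, Cd274 at 14.4 ± 0.445, Pdcd1lg2 at 10.7 ± 0.251 and Cd28 at 1.35 ± 0.234 RPKM. Among all genes tested, ranked per length, Icosl stood at percentile 88.3 in Control and 88.8 in Prmt1-null iGBs, and Cd28 at percentile 18.1 and 31.0.

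**Figure D3:**
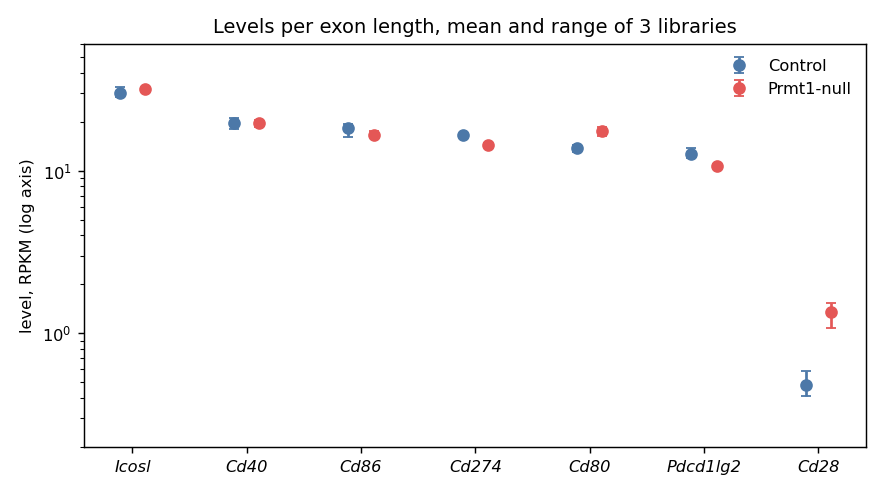
Level per length of the 7 genes in each library, in RPKM on a log axis, with points for the mean and bars for the range of the 3 libraries in each group. Icosl is the highest in both groups, at means of 30.1 and 31.9 RPKM, and Cd28 the lowest, at 0.48 and 1.35 RPKM.

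The sequences in front of the start sites are shown for 3 of the 4 genes whose groups did not overlap, as far as the reference table held them. It held 4 of the 7 genes (Cd80, Icosl, Cd274 and Pdcd1lg2). The 250 bases upstream of the annotated RefSeq start (GRCm38.p6, forward strand) follow for chr16:38458683-38458932, chr19:29367188-29367437 and chr19:29410669-29410918, with capitals for matches on either strand to the motifs named after them. The RefSeq start of Cd80 lies 3.37 kb inside the GENCODE gene given above, which has a longer transcript.
Cd80: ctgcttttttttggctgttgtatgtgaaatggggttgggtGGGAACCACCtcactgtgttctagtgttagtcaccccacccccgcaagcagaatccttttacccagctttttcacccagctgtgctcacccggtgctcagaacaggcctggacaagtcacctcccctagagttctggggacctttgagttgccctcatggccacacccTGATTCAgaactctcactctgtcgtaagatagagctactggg
Cd274: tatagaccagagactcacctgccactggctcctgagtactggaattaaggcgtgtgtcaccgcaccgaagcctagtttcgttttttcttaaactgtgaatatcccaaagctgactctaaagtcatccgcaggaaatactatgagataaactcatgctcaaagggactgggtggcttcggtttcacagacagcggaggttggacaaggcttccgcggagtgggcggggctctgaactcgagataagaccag
Pdcd1lg2: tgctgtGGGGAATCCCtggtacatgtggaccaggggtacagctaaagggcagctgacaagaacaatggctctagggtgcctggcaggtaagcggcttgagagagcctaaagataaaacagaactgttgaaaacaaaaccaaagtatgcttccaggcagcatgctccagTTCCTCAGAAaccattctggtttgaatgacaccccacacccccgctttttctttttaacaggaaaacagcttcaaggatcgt
The motifs searched were NF-kB as GGGANNNNCC, STAT6 as TTCNNNNGAA, AP-1 as TGANTCA and the core of the interferon-stimulated response element as GAAA, any 2 bases and GAAA. Among 32851 such windows of 27025 genes, 17.6%, 5.85%, 6.75% and 2.98% held them. The Cd80 window held GGGAACCACC for NF-kB at −210 to −201 and TGATTCA for AP-1 at −42 to −36 from the start. The Pdcd1lg2 window held GGGGAATCCC, an NF-kB match on the reverse strand, at −244 to −235, and TTCCTCAGAA for STAT6 at −82 to −73. The Cd274 window held none of these letters, and that of Icosl held an NF-kB match, GGGATGGGCC, at −71 to −62. GC content was 52.8% for Cd80, 68.8% for Icosl, 50.4% for Cd274 and 48.4% for Pdcd1lg2, against a median of 52.4% over all windows. The matches are a description of the letters only.

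Sex was a contrast that had not been used to choose the genes. With genotype in the model, 0 of the 7 genes differed between male and female libraries by edgeR's quasi-likelihood test (adjusted p from 0.777 to 0.957), 0 had an unadjusted p under 0.05, and 0 passed in DESeq2 or limma-voom. Of all genes tested, with chromosome Y left out, 12 passed (0.0657%), and DESeq2 called 28 and limma-voom 12. Cd28 had the lowest p, 0.125, with a log2 difference of male from female libraries of −0.31 (SE 0.188). This contrast rested on 2 male and 4 female libraries.

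The wider pathway was read from lists of genes written by role. In 5 lists with 95 tested genes, 1 gene passed the threshold (1.05%), close to the 1.18% of all genes, while 23 (24.2%) had an unadjusted p under 0.05, against 13.5% of all genes. DESeq2 called 8 of the 95 (8.42%), against 4.08% of all genes, and limma-voom 2 (2.11%), against 1.36%. Their median log2 fold change was 0.04, and 52 were above 0.

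The gene that passed was Tnfrsf8, which encodes CD30, a receptor of the tumour necrosis factor family on activated lymphocytes. Its normalized counts were 982.9, 1040 and 819.7 in Control and 1309, 1409 and 1366 in Prmt1-null libraries. The groups did not overlap, and the means rose from 947.7 ± 114.5 to 1361.5 ± 50.3 (log2 fold change 0.52, SE 0.109, adjusted p = 0.0358). The call was lost when any 1 of the 6 libraries was left out (adjusted p from 0.0575 to 0.194). It was also lost with the replicate number as a block (adjusted p = 0.0647). The other 11 of the 12 tested costimulatory receptors did not pass. Among them Cd96, an adhesion receptor that binds CD155, was at 1224.4 ± 78.9 and 904.1 ± 50.5 normalized counts (log2 fold change −0.44, SE 0.102, adjusted p = 0.0569), and DESeq2 and limma-voom called it. Havcr2 (TIM-3), with 0, 1 and 8 counts in Control and 23, 23 and 14 in Prmt1-null libraries, had an adjusted p of 0.258, and Tigit, with 78, 97 and 48 against 42, 38 and 53 counts, one of 0.304. The median log2 fold change of this list was 0.416, and 5 of the 12 genes had a mean normalized count over 100.

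Among the 26 tested genes for other ligands and surface molecules shown to T cells, 0 passed, 8 had an unadjusted p under 0.05, DESeq2 called 2 (Cd24a and Btla) and limma-voom 0. Vsir, which encodes the inhibitory ligand VISTA, was at 415.4 ± 67.5 and 570.5 ± 41.1 normalized counts (log2 fold change 0.46, adjusted p = 0.151). Cd276, which encodes B7-H3, was at 120.2 ± 28.5 and 61.1 ± 21.2 (adjusted p = 0.177). Btla, an inhibitory receptor of B and T cells, was at 12728 ± 635.2 and 14566 ± 776 normalized counts (adjusted p = 0.177), and Cd24a, a small glycosylphosphatidylinositol-anchored protein, at 45472 ± 2519 and 39582 ± 1575 (adjusted p = 0.167). In these 4 genes, as in 10 of the 26, the libraries of the groups did not overlap, against 19.9% of all genes tested. The median of the list was 0.09.

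Of 29 genes that carry the signal of CD28 inside the cell, 0 passed, 5 had an unadjusted p under 0.05, DESeq2 called 2 (Tec and Lcp2) and limma-voom 0. Tec, a cytoplasmic tyrosine kinase, had a log2 fold change of 0.25 (adjusted p = 0.0794) and Lcp2, the adaptor SLP-76, one of 0.23 (adjusted p = 0.105). Of 21 genes of the CD40 pathway 0 passed, 5 had an unadjusted p under 0.05, DESeq2 called 2 and limma-voom 0. These 2 were Nfkbie, an inhibitor of NF-kB (0.28, SE 0.066, adjusted p = 0.0571), and Tnfaip3, which encodes the ubiquitin-editing enzyme A20 (0.23, adjusted p = 0.095). The other 3 with an unadjusted p under 0.05 were Traf1, an adaptor of the CD40 receptor complex (0.15, adjusted p = 0.29), and the ubiquitin ligase genes Birc2 (−0.15, adjusted p = 0.234) and Birc3 (−0.15, adjusted p = 0.314). The medians of these lists were 0.04 and −0.01. Of 7 genes for the turnover of the ligands at the surface 0 passed, 1 had an unadjusted p under 0.05 and DESeq2 and limma-voom called 0. That gene was Adam10, a protease that sheds surface proteins including ICOS ligand, at 16466 ± 746.8 and 15004 ± 314 normalized counts (log2 fold change −0.13, adjusted p = 0.344).

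**Figure D4:**
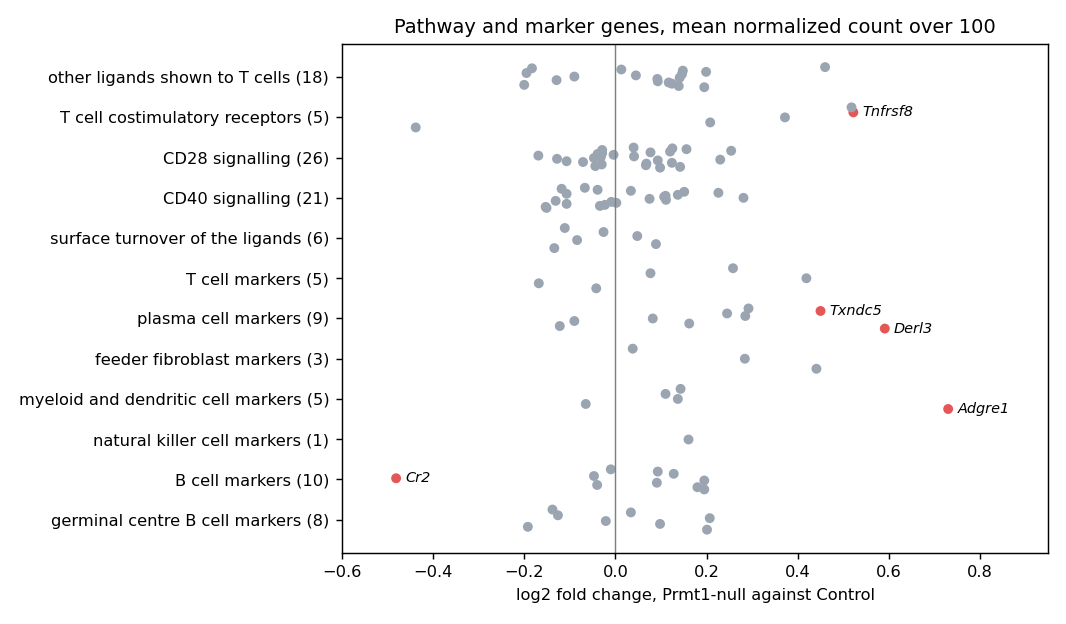
Log2 fold change of Prmt1-null against Control iGBs for genes of the 12 lists with a mean normalized count over 100, with the number of such genes in brackets. Each point is a gene, and the 5 named genes in red passed an adjusted p of 0.05, with Adgre1 at 0.73, Derl3 at 0.59, Tnfrsf8 at 0.52, Txndc5 at 0.45 and Cr2 at −0.48.

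Markers of other cells that carry costimulatory molecules or may remain in cultures of purified splenic B cells were read in the same way. Over all genes tested, 1.18% passed the threshold and 13.5% had an unadjusted p under 0.05, and DESeq2 and limma-voom called 4.08% and 1.36%. With lists this short, few or 0 calls say little about whether a cell type changed. The 15 feeder fibroblast markers summed to 18.1 to 22.7 CPM in Control and 22.5 to 27.3 CPM in Prmt1-null libraries, with Col1a1, Fn1 and Sparc highest per length and Lum and Postn at 0 counts, and 0 of 12 tested markers passed (2 with an unadjusted p under 0.05, and 0 in DESeq2 or limma-voom). The median log2 fold change of the tested feeder markers was 0.25, 9 of the 12 were above 0, and 3 had a mean normalized count over 100. The 2 with an unadjusted p under 0.05 were Col1a1 at 0.44 and Sparc at 0.64 (adjusted p = 0.173 and 0.36 by edgeR). Both were higher in each Prmt1-null library than in each Control library. Cd40lg had 22, 21 and 8 counts in Control and 0, 30 and 2 in Prmt1-null libraries. The 12 myeloid and dendritic cell markers summed to 44.2 to 50.0 CPM in Control and 47.4 to 53.3 CPM in Prmt1-null libraries, led by Cd68 at 23.0 RPKM in Control, a level above that of each of the 7 genes except Icosl, and by Fcer1g, with C1qa and C1qb at 0 counts. Of 8 tested, 1 passed: Adgre1, which encodes F4/80, rose from 352.8 ± 52.1 to 585.5 ± 64.6 normalized counts (log2 fold change 0.73, SE 0.147, adjusted p = 0.0319). That call was kept without Control replicate 3 and lost without any other library (adjusted p up to 0.141). The 7 natural killer cell markers summed to 17.2 to 21.8 CPM in Control and 18.6 to 25.2 CPM in Prmt1-null libraries, led by Prf1 and Gzma, and 0 of 6 tested passed (1 with an unadjusted p under 0.05, and 0 in DESeq2 or limma-voom). The 1 gene was Nkg7, a granule protein gene, with 16, 24 and 22 counts in Control and 53, 51 and 56 in Prmt1-null libraries (log2 fold change 1.24, SE 0.445, adjusted p = 0.219). The median log2 fold change was 0.26 for the natural killer cell list, with 5 of 6 above 0. For the myeloid list it was 0.14, with 6 of 8 above 0. Of the 10 B cell markers 1 passed, Cr2 (complement receptor CD21), which fell from 8364 ± 520.1 to 5993 ± 913 normalized counts (log2 fold change −0.48, SE 0.091, adjusted p = 0.0241). It was kept without Control replicate 3 or Prmt1-null replicate 1 and lost without each of the other 4 (adjusted p up to 0.132). Of the 8 germinal centre markers 0 passed (2 with an unadjusted p under 0.05), DESeq2 called 1 and limma-voom 0. The part of these cells and markers in the levels of the 7 genes was not tested.

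Position on the chromosome was a further property that the choice of genes had not used. The 3 nearest tested genes on each side of the 6 loci, with Cd274 and Pdcd1lg2 taken as 1 locus, gave 36 neighbours. Of these 0 passed the threshold by edgeR, 8 had an unadjusted p under 0.05, DESeq2 called 2 (Pfkl and Plgrkt) and limma-voom 0. Over all genes tested the shares were 1.18%, 13.5%, 4.08% and 1.36%, in the same order. The log2 fold changes of the neighbours ran from −1.185 to 0.406 with a median of 0.05. Plgrkt, which encodes a plasminogen receptor, lies on the opposite strand 0.065 kb from Cd274 and had a log2 fold change of −0.26 (SE 0.072, adjusted p = 0.113). Jak2, the kinase gene at the same locus, had one of −0.20 (SE 0.071, adjusted p = 0.214). For both, and for C030046E11Rik, the Control libraries were above the Prmt1-null libraries without overlap. Over all 6 loci the groups did not overlap for 12 of the 36 neighbours, 4 higher and 8 lower, against 19.9% of all genes tested. The other 4 neighbours at the Cd274 locus, Insl6, C030046E11Rik, Ermp1 and 9930021J03Rik, were at −0.04, −0.09, 0.05 and −0.12 (adjusted p from 0.534 to 0.957). Near Icosl, Pfkl, a phosphofructokinase gene, was at 0.30 (adjusted p = 0.096) and Aire, the autoimmune regulator, at −0.30 (adjusted p = 0.192). Near Cd28 the closest tested gene, the pseudogene Eif4a-ps4, was at 0.19 (adjusted p = 0.191). Ctla4 starts 114 kb beyond the end of Cd28 and Icos 62.1 kb beyond that of Ctla4.

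**Figure D5:**
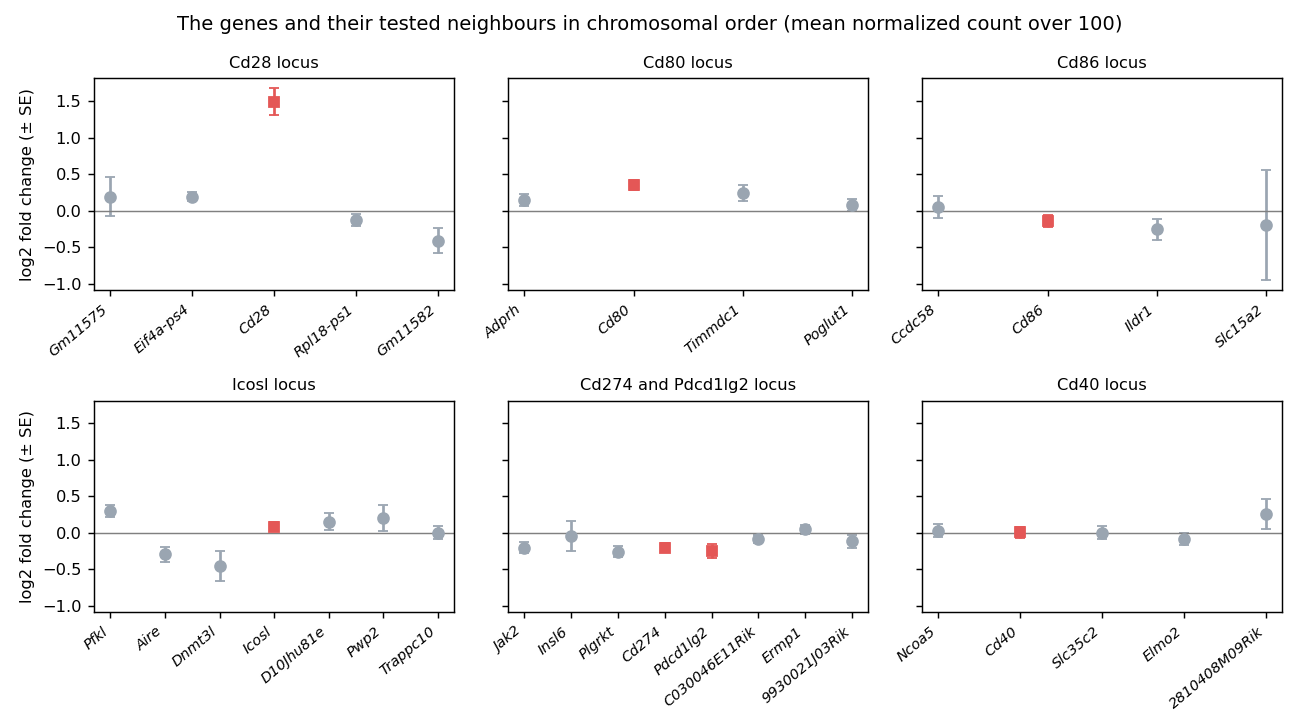
Log2 fold change of Prmt1-null against Control iGBs for the 7 genes (red squares) and those of their neighbours with a mean normalized count over 100 (grey circles), with bars for ± 1 standard error. The panels are the 6 loci, and the x axis gives the order of the genes along the chromosome, not the distance. Cd28 stands above its neighbours at 1.49, and the 6 neighbours of Cd274 and Pdcd1lg2 lie between Plgrkt at −0.26 and Ermp1 at 0.05.

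The profile of Cd28 over the 6 libraries was compared with that of each other tested gene by the root mean square distance of log2 CPM, each centred on its own mean. The 5 nearest were Gm5784 (distance 0.183), Usp44 (0.19), Gm16201 (0.214), Fndc9 (0.225) and Poln (0.232). Fndc9, a fibronectin type III domain gene that lies opposite to the far more abundant Cyfip2 (336580 counts over the 6 libraries), had group means of 560.4 ± 117 (Control) and 1729 ± 288 (Prmt1-null) normalized counts (log2 fold change 1.63, SE 0.157). Poln, a DNA polymerase gene that overlaps Haus3 on the same strand (8438 counts), was at 143.4 ± 26 and 513.9 ± 72.6 (1.84, SE 0.177). Usp44, a deubiquitinase gene, was at 57.6 ± 15.5 and 137.8 ± 23.2, and Gm5784 and Gm16201, non-coding genes, were at means of 3.93 and 12.4 and of 18.3 and 46.3 normalized counts. No test is given for these 5 genes, since they were chosen by their likeness to Cd28 over the same libraries. The counts of Fndc9 and Poln are uncertain where these genes overlap. The 5 genes lie on chromosomes 12, 10, 7, 11 and 5, and likeness over 6 libraries in 2 groups is mostly a likeness of the group means.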

How the data were processed

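RNA-seq libraries of iGBs from 3 Control and 3 Prmt1-null mice were compared. Reads were trimmed by the authors (Trimmomatic 0.32), aligned to mm10 (STAR 2.3.0e) and, where a primary alignment had at most 2 locations, assigned to gene exons (featureCounts 1.4.4), as the submitters' processing notes and the methods give it. The authors deposited raw, unnormalized counts. The strand setting was not given in the sources used here. Groups, sexes and replicate numbers came from the labels. Of the 39017 genes, 37607 were matched to GENCODE M21 by ID and 804 by symbol.

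The 398 chromosome Y genes were left out, as in the study's methods. Counts were filtered with filterByExpr (minimum count 10), scaled by TMM and tested with the quasi-likelihood test of edgeR 4.0.16 in R 4.3.3, with Benjamini-Hochberg adjustment over 18268 genes. The threshold was an adjusted p of 0.05 with a mean normalized count over 100. The standard error came from the log2 fold change and the F statistic. RPKM used the union of exons. Tests were tried on simulated data.

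The members and lists were chosen with earlier results of these data known. The genes named are the members, Prmt1, Ctla4, Icos and Pdcd1, the genes of each list and of the neighbours past the threshold (at most 4) or otherwise the 2 to 4 with the smallest p, markers highest per length or with no count, and the 5 profiles nearest to that of Cd28. Cd40lg, Aire, Eif4a-ps4 and others outside this rule were named after their values were seen. Some list genes that the rule would name are not reported here. Alternatives were DESeq2 1.42.0, DESeq2 with a prior centred on 0, limma-voom (limma 3.58.1), median-of-ratios size factors, no filter, the replicate number as a block, sex as a covariate, chromosome Y kept, no minimum mean count and each library left out. Same-numbered libraries came from different mice, and the correlations of their deviations from the group means were −0.075, 0.045 and −0.078, so the numbers did not pair them.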

Additional observations from a re-analysis of the deposited data

How the results depend on the processing

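Of 337 alternative values, 278 stayed within the spread between replicates or, for counts, within 1.5 times, and 59 moved further. Against 216 genes in all, DESeq2 called 746 with or without the prior, and 675 passed without the filter; leaving out 1 library gave 31 to 340 (128, 59 and 340 without Control replicates 1, 2 and 3, and 51, 31 and 77 without Prmt1-null replicates 1, 2 and 3). The log2 fold change of Cd28 was 0.87 with the zero-centred prior, which pulls low-count genes toward 0 by construction, and 1.38 to 1.655 with 1 library left out. Over the same 6 fits Cd80 ran from 0.309 to 0.404, Cd86 from −0.226 to −0.095, Icosl from 0.045 to 0.144, Cd274 from −0.221 to −0.182, Pdcd1lg2 from −0.284 to −0.181 and Cd40 from −0.049 to 0.063, with a sign that turned without Control replicate 1, Prmt1-null replicate 1 or Prmt1-null replicate 3. The count of the 7 genes past the threshold was 1 to 2, with Cd80 lost except without Control replicate 3.

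In the lists, DESeq2 (with or without the prior) called 2 other ligands, 2 receptors, 2 CD28 signalling genes, 2 CD40 signalling genes, 4 plasma cell markers, 1 germinal centre marker and 2 neighbours. Without the filter the receptors gave 2, CD28 signalling 2, CD40 signalling 2, plasma cell markers 4 and neighbours 2. With limma-voom the receptors gave 2 and the plasma cell markers 4, and with sex as a covariate 2 and 4, and CD40 signalling 1. Leaving out 1 library gave 0 receptors, 0 to 2 CD40 signalling genes (2 without Control replicate 3), 1 to 3 plasma cell markers (3 without Control replicate 3, and 1 without Control replicate 2, Prmt1-null replicate 2 or Prmt1-null replicate 3), 0 to 1 myeloid markers, 0 to 1 B cell markers, and 0 in the other lists, the neighbours and the sex contrast. Derl3 passed in 3 of those 6 fits, Cr2 in 2, Adgre1 in 1 (without Control replicate 3) and Txndc5 in 6. The cause of these differences was not tested.

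With the replicate number as a block, which does not pair mice here, 151 genes passed, the log2 fold change of Cd28 was 1.49 and of Cd80 0.35, and the receptors gave 0; it changed no other count past 1.5 times. For Ctla4, Icos, Pdcd1 and Havcr2 the depth limits what could be seen.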
